A study of Mus musculus with 24 samples.

Results

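*Mettl23*, *Srsf2*, *Jmjd6* and *Mfsd11* are 4 genes that lie against or across each other on mouse chromosome 11, the chromosome that also carries *Sox9*. They are 4 of the 51912 genes in the deposited table, and all 4 were among the 16454 genes that passed the filter on low values (10 or more normalized counts in 4 or more libraries). *Mettl23* was chosen by its difference between mutants and controls, with the results of all 6 groups known, so its values are given as a description with no test. *Srsf2*, *Jmjd6* and *Mfsd11* were named because their exons overlap those of *Mettl23*, and the question put to them was whether they moved opposite to *Mettl23*.

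RNA came from archicortex (ARK), the medial edge of the embryonic cortex, which holds the dentate neuroepithelium and the cortical hem, dissected by hand from mouse embryos on a mixed C57BL/6J;MF1 background. There were 24 libraries in 6 groups of 4. Sox9fl/fl;Sox1Cre mutants and their Sox9+/+;Sox1Cre controls were collected at E12.5 and at E13.5, and Sox9fl/fl;NestinCre mutants and their Sox9+/+;NestinCre controls at E13.5. Sox1Cre is a knock-in allele that removes *Sox9* from neural tissue early, hem included. NestinCre is a transgene whose deletion starts later and leaves most hem cells with *Sox9*. Every group, controls included, carried a Cre. Both *Sox9* copies were floxed in all 12 mutants and unmodified in all 12 controls, so loss of *Sox9* and any other difference between the floxed and unfloxed stocks cannot be told apart. The study describes the libraries as quadruplicates of mutants and controls and does not say whether any shared a litter, and p-values measure the spread between these libraries.

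Values are normalized counts, that is, reads assigned to a gene divided by a size factor for the library. Libraries held between 16163560 and 49445219 reads on genes, with a median of 23016925, and the 4 genes drew between 140 reads (*Mettl23* in a NestinCre mutant) and 20851 reads (*Srsf2* in a Sox1Cre control) per library. *Sox9* itself followed the labels. It averaged 2260 ± 507.8 in Sox1Cre mutants and 4522 ± 503 in controls at E12.5, 3363 ± 376.2 and 5578 ± 305.8 at E13.5, and 3134 ± 161.8 and 5152 ± 465.3 in the NestinCre set (SD, n = 4 each). Every mutant library lay below every control library of its set. A count over the whole gene also takes in reads from exons outside the deleted part.

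All 12 archicortex and hem markers had a mean of at least 10, led by *Lhx2*, and none of them passed the test in any mutant comparison. The summed ventral telencephalon markers (*Dlx1*, *Dlx2*, *Dlx5*, *Gsx2*, *Nkx2-1*, *Lhx6* and *Lhx8*) had group medians between 32.1 and 57.1 normalized counts, but reached 573.9 in NestinCre mutant replicate 2. Choroid plexus markers, led by *Ttr*, summed to 7648 in Sox1Cre mutant E13.5 replicate 1 against a group median of 68223. *Mettl23* read 178.2 in the first of these libraries and 205.4 in the second, within the range of the other mutants. Blood, meninges and endothelium markers were present in every group, and none of these 6, 6 and 5 genes, nor any of the 6 choroid plexus and 3 tested ventral markers, passed the test in any mutant comparison. Over all genes 0.924% passed in Sox1Cre E13.5, 0.0669% in NestinCre and 0.723% in Sox1Cre E12.5 mutants.

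METTL23 belongs to the methyltransferase-like family and acts on arginine in proteins, and loss of the human gene is known from intellectual disability. SRSF2 is a serine/arginine-rich (SR) protein that binds exonic enhancers and guides splice site choice, and it also limits its own mRNA through regulated splicing. JMJD6 is an oxygenase with a Jumonji C domain that hydroxylates lysines of splicing proteins such as U2AF2. MFSD11 is an orphan member of the major facilitator superfamily of membrane transporters, related to UNC93 proteins and found in neurons.

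On GRCm38, *Mettl23* (ENSMUSG00000090266) runs from 116843278 to 116854263 on the plus strand of chromosome 11. *Jmjd6* (ENSMUSG00000056962, 116837432 to 116843449) and *Srsf2* (ENSMUSG00000034120, 116849901 to 116853094) run the opposite way, and *Mfsd11* (ENSMUSG00000020818, 116852440 to 116875635) runs the same way as *Mettl23*. *Srsf2* lies inside the body of *Mettl23*. Of the 2697 exon bases annotated for *Mettl23*, 889 (33%) also belong to another gene: 172 to *Jmjd6*, 460 to *Srsf2* and 257 to *Mfsd11*. The *Jmjd6* overlap falls in a *Mettl23* transcript of 5 exons and 1276 bases, the *Srsf2* overlap in a transcript of 1785 bases with a retained intron and the *Mfsd11* overlap in a transcript of 502 bases, while the other 5 annotated transcripts share no exon base with a neighbour. The shared part was smaller for the neighbours, at 25.3% of *Srsf2*, 7.34% of *Jmjd6* and 7.7% of *Mfsd11*. *Srsf2* and *Mfsd11* also share 288 exon bases, and *Jmjd6* shares 173 with *Gm27401*, a gene with a mean of 0.161 that was not tested. Whether the counting used strand is not given in the sources used here, so reads from the shared exons cannot be placed with certainty. *Sox9* ends 4055518 bases before *Mettl23* begins.

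**Figure D1:**
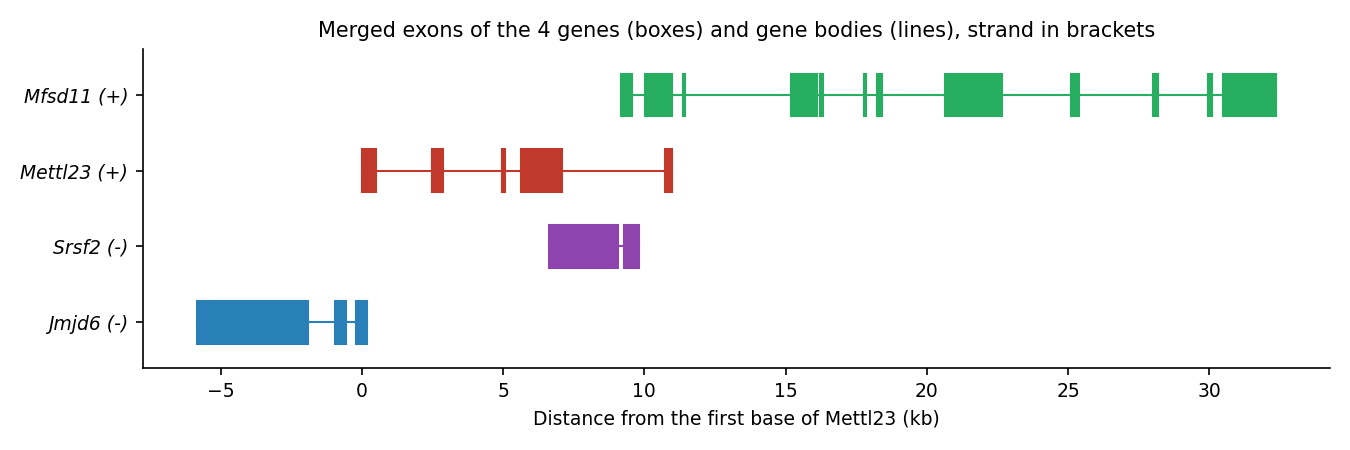
Map of the 4 genes drawn to scale along the distance from the first base of Mettl23 in kb, with boxes for merged exons, lines for gene bodies and the strand in brackets. Jmjd6 meets the first exon of Mettl23 head to head, Srsf2 lies within the Mettl23 body on the other strand, and Mfsd11 overlaps the last Mettl23 exon.

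Promoter windows are shown because 2 of the genes start within the same stretch. RefSeq on GRCm38.p6 gives promoter windows from 250 bases before to 50 after each start, and those of *Mettl23* (chr11:116843265-116843564, plus strand) and *Jmjd6* (chr11:116843400-116843699, minus strand) share 165 bases, with starts 66 bases apart. In the *Mettl23* window the stretch shared with *Jmjd6* is in capitals, and in the *Srsf2* window (chr11:116853045-116853344, minus strand) the letters CCAAT and TATAAA are in capitals.
Mettl23: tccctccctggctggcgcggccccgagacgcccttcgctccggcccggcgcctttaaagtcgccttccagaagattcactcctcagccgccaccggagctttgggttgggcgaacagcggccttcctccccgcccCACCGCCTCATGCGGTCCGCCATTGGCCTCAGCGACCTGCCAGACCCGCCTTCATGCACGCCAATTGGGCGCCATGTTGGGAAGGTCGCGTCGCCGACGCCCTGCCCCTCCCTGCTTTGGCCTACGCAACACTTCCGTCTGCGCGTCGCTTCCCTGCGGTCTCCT
Srsf2: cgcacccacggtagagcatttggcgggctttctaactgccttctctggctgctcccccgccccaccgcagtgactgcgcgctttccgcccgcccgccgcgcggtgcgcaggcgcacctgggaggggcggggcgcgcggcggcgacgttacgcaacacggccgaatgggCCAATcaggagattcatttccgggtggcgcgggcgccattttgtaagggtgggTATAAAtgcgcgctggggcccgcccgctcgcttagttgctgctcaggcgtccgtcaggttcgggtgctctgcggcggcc
These windows held 68.3% and 69.3% G and C, against a median of 52.7% over 32851 windows. CCAAT or its complement ATTGG occurred 3 times in the *Mettl23* window, 3 times in that of *Jmjd6* and 1 time in that of *Srsf2*, and in 37.4% of all windows at least once. TATAAA or TTTATA occurred in the *Srsf2* window alone of these, and in 13.6% of all. AACAAT or ATTGTT, the core letters of SOX factor sites, occurred in none of the windows of the 4 genes and in 10.7% of all windows. Matches on both strands were counted and may overlap, and they are matches of letters in short windows only.

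*Mettl23* was lower in every mutant than in every control. In Sox1Cre mutants at E12.5 it read 180.6, 221, 198 and 205.2, against 564.7, 570.9, 497.5 and 533.8 in controls. In Sox1Cre mutants at E13.5 it read 205.4, 174.2, 178.9 and 214.4, against 535.7, 513.5, 527.3 and 563.7. In NestinCre mutants it read 189.6, 178.2, 175.9 and 195.3, against 357.2, 345, 391.1 and 366.7. No mutant and control ranges overlapped, and the 3 mutant groups overlapped one another.

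The 24 values fell at 3 separate heights. The 12 mutants averaged 193.1 ± 16 (range 174.2 to 221), the 4 NestinCre controls 365 ± 19.6 and the 8 Sox1Cre controls 538.4 ± 26.3 (SD). Empty intervals of 124 and 106.4 normalized counts divided them. The step from mutants to NestinCre controls was 171.9 and that from NestinCre to Sox1Cre controls 173.4, so the NestinCre controls stood midway on the count scale. Ordered by mean, the Sox1Cre controls at E12.5 (541.7) and E13.5 (535) came first with overlapping ranges, then the NestinCre controls, then the mutants at 201.2, 193.2 and 184.7, again with overlapping ranges. NestinCre mutants held 50.6% of their control level, and Sox1Cre mutants 36.1% at E13.5 and 37.1% at E12.5. The mutants of the 2 lines had overlapping levels, and the controls of the 2 lines did not.

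**Figure D2:**
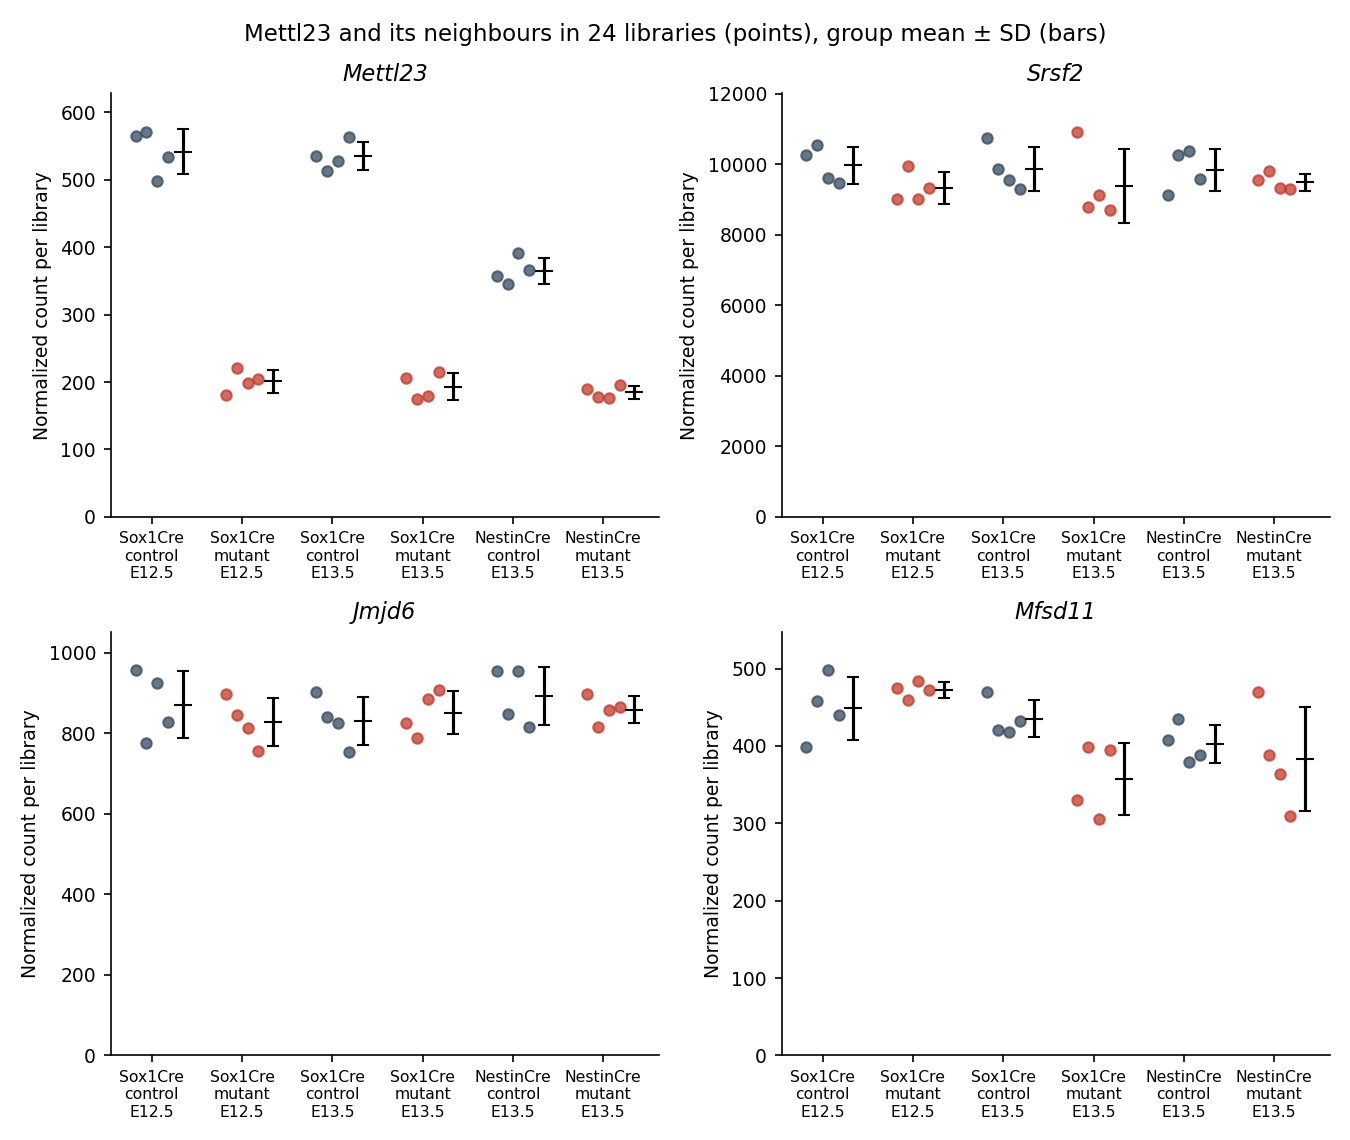
Normalized counts of Mettl23, Srsf2, Jmjd6 and Mfsd11 in each of 24 libraries (points, controls dark and mutants red) with the mean ± SD of each group of 4 as a bar, on axes that begin at 0. Mettl23 sits near 193.1 in 12 mutants, 365 in NestinCre controls and 538.4 in Sox1Cre controls, while for the other 3 genes the mutants overlap the controls of their own set, except for Mfsd11 in Sox1Cre libraries at E13.5.

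The log2 fold change of *Mettl23* was -1.43 in Sox1Cre mutants at E12.5, -1.47 in Sox1Cre mutants at E13.5 and -0.98 in NestinCre mutants, each with a standard error of 0.0776 pooled over all 24 libraries. Of the 16454 genes, 0.723% passed the limma test in the first of these comparisons (119 genes, 30 higher and 89 lower), 0.924% in the second and 0.0669% in the third. The Sox1Cre change minus the NestinCre change was -0.49 for *Mettl23*, given as a description. For *Srsf2*, *Jmjd6* and *Mfsd11* it was -0.027, 0.09 and -0.21, and none of them was among the 0.0425% of genes that passed the test of this difference. Between ages the Sox1Cre change of *Mettl23* differed by -0.044, and 0% of genes passed there. By limma that was 0 genes, with 1217 at an unadjusted p under 0.05, 0 by edgeR and 20 by DESeq2.

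The controls were compared with each other as well, and they are the same libraries as above. As a description, *Mettl23* stood lower in NestinCre than in Sox1Cre controls at E13.5 by a log2 difference of -0.55, and the Sox1Cre controls at E13.5 differed from those at E12.5 by -0.017. In these control comparisons *Srsf2* differed by -0.0043 and -0.016, *Jmjd6* by 0.10 and -0.067 and *Mfsd11* by -0.11 and -0.041 (log2). None of the 3 neighbours was among the 0.243% of genes that passed between control lines or the 11.5% that passed between control ages, a count that went from 1892 to 0 with *Xist* as a covariate. The sign of the *Srsf2* difference between control lines turned with the scaling.

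*Srsf2*, which lies across *Mettl23* on the opposite strand, did not pass the test in any comparison. Sox1Cre mutants at E13.5 read 10915, 8795, 9128 and 8693, and their controls 10740, 9877, 9555 and 9285. NestinCre mutants read 9540, 9819, 9322 and 9299, and their controls 9127, 10255, 10380 and 9572. At E12.5 the means were 9329 ± 444 in mutants and 9966 ± 513 in controls. Mutant and control ranges overlapped in all 3 sets, and the mutant mean was the lower in each. The log2 fold changes were -0.10 at E12.5 (95% interval -0.23 to 0.039, limma adjusted p = 0.545), -0.076 in Sox1Cre mutants at E13.5 (-0.21 to 0.057, limma adjusted p = 0.71) and -0.049 in NestinCre mutants (-0.18 to 0.085, limma adjusted p = 1). Without Sox1Cre mutant E13.5 replicate 1 the second was -0.15 (limma adjusted p = 0.131). Without Sox1Cre control E13.5 replicate 1 it was -0.035 (limma adjusted p = 0.969). The NestinCre value lay between -0.084 and -0.022 over fits with 1 library left out.

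*Jmjd6*, which starts beside *Mettl23* on the opposite strand, did not pass the test in any comparison. Sox1Cre mutants at E13.5 read 826, 788, 884.8 and 906.4, and controls 901.4, 839.9, 825.5 and 754.5. In the NestinCre set the mean was 858.7 ± 33.9 in mutants and 892.6 ± 73 in controls, and at E12.5 it was 828.3 ± 59.4 and 870.9 ± 83.1. All ranges overlapped. The log2 fold changes were 0.037 (95% interval -0.12 to 0.19, limma adjusted p = 0.912), -0.053 (-0.21 to 0.10, limma adjusted p = 1) and -0.07 (-0.23 to 0.085, limma adjusted p = 0.726) in the same order. The first changed sign when Sox1Cre control E13.5 replicate 4 was left out (-0.0085).

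*Mfsd11*, which overlaps the last exon of *Mettl23* on the same strand, showed the largest difference of the 3 neighbours, and it was in the direction of *Mettl23*. Sox1Cre mutants at E13.5 read 329.5, 398.8, 305.2 and 394.5, against 470, 420.7, 417.6 and 431.7 in controls. No mutant reached the lowest control, and the exact permutation test gave an unadjusted two-sided p of 0.0286, the smallest it can give here. By limma the unadjusted p of *Mfsd11* was 0.0102, and 11.7% of all genes had an unadjusted limma p under 0.05 in this comparison. How many genes showed no overlap between these 2 groups was not counted. The exact permutation test gave 0.6 in the NestinCre set and 0.314 at E12.5. For *Srsf2* and *Jmjd6* that test gave 0.114 to 0.571 over the 3 sets. In the fit over all genes the log2 fold change in Sox1Cre mutants at E13.5 was -0.29 (95% interval -0.51 to -0.077). The limma adjusted p was 0.226, so the gene was not among the 0.924% called. NestinCre mutants spread from 309.7 to 470.3 around controls at 379.2 to 435.3 (log2 fold change -0.086, limma adjusted p = 1). At E12.5 the mutants, at 459.1 to 483.5, fell within the control range of 398.4 to 497.5 (log2 fold change 0.08, limma adjusted p = 0.785). The difference of the Sox1Cre change between ages was -0.37 (95% interval -0.68 to -0.067) and did not pass the test (limma adjusted p = 0.61).

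Whether the neighbours took up what *Mettl23* lost was asked of their sum. *Srsf2*, *Jmjd6* and *Mfsd11* together reached 10591 ± 998.3 in Sox1Cre mutants and 11130 ± 709.1 in controls at E13.5, 10737 ± 268.6 and 11129 ± 589 in the NestinCre set, and 10630 ± 434.3 and 11286 ± 487.1 at E12.5. The mutant sums differed from those of controls by -538.7, -392 and -656 normalized counts, differences that two-sided exact permutation tests did not separate from the spread (p = 0.371, 0.314 and 0.114, and 0.371, 0.371 and 0.343 adjusted over the 3). The *Mettl23* means differed by -341.8, -180.3 and -340.5, which in size is 3.07%, 1.62% and 3.02% of the control sum. Each within-group SD of the sum was larger than the *Mettl23* difference of its set. These tests therefore do not decide whether the sum gained that amount. The sum, like *Mettl23*, had the lower mean in the mutants of all 3 sets. With 1 library left out, the sum difference in the Sox1Cre E13.5 set lay between -9.27% and -1.96% of control. The -9.27% came without Sox1Cre mutant E13.5 replicate 1 (two-sided exact permutation p = 0.0571). In the NestinCre set such fits gave -5.33% to -1.8%.

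Had *Jmjd6* alone gained the whole *Mettl23* difference, its log2 fold change would have been 0.50 in Sox1Cre mutants at E13.5, 0.27 in NestinCre mutants and 0.48 at E12.5. Had *Mfsd11* done so, it would have been 0.84, 0.53 and 0.82. These values are built from the differences that chose *Mettl23* and are a description with no test. Beside them, the upper bounds of the measured 95% intervals at E12.5 were 0.085 for *Jmjd6* and 0.30 for *Mfsd11*. For *Srsf2*, which is far more abundant, the whole difference amounts to 0.049, 0.026 and 0.048. These values too are a description with no test. Upper bounds of the measured *Srsf2* intervals were 0.057, 0.085 and 0.039 in the same order. Whether *Srsf2* gained that amount was not tested. In bulk tissue, fewer cells that express a gene and less RNA per cell cannot be told apart.

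**Figure D3:**
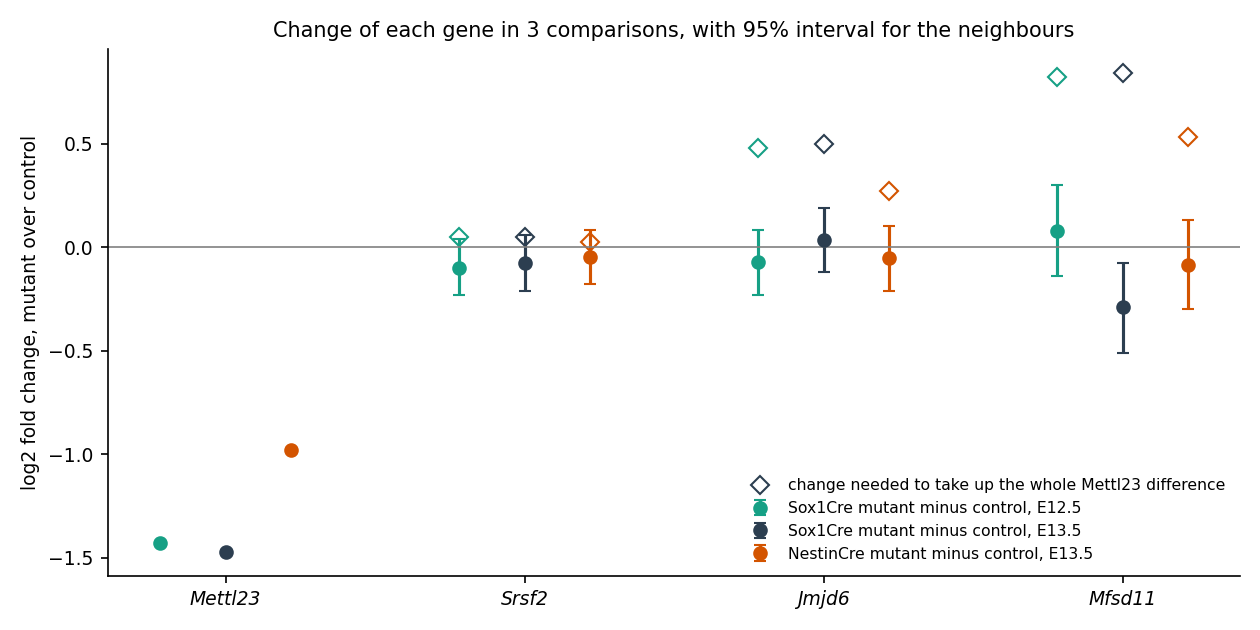
Log2 fold change of mutant over control (points) for each gene in 3 comparisons, with its 95% interval for the 3 neighbours, and as open diamonds the change a neighbour would show had it taken up the whole Mettl23 difference. Mettl23 lies between -1.47 and -0.98, and the 3 neighbours between -0.29 and 0.08. The diamonds are built from the differences that chose Mettl23 and are a description with no test.

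As a share of the 4 genes' total, *Mettl23* made up 1.86% ± 0.0991 in Sox1Cre mutants and 4.58% ± 0.182 in controls at E12.5 (SD, n = 4 each), again as a description. At E13.5 it made up 1.8% and 4.6% in the Sox1Cre set and 1.69% and 3.18% in the NestinCre set. These shares do not depend on the size factor of a library.

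Levels of different genes were set side by side per kb of annotated exon. *Srsf2* stood highest at 3261 normalized counts per kb over 24 libraries, followed by *Jmjd6* at 182.1, *Mettl23* at 124.9 and *Mfsd11* at 58.8. In the 8 Sox1Cre controls *Mettl23* (199.6 ± 9.74 per kb) stood beside *Jmjd6* at 181.1 ± 15, and in the 12 mutants it was at 71.6 ± 5.92 beside 180.1 ± 10.1. Dividing the same whole-gene counts by exon bases shared with no other gene changed the first pair to 297.8 ± 14.5 and 195.4 ± 16.2. The second pair became 106.8 ± 8.83 and 194.4 ± 10.9. Reads from shared exons stayed in these counts, so the values are not levels of the unshared exons. How far the genes stood apart depended on the exon length used. Within groups *Mettl23* had a residual SD of 0.0985 on the log2 scale, against a median of 0.153 over 3997 genes of like level. Of these, 12.8% had a smaller one. This is a description, since the gene was chosen on these values and such a choice can favour a small spread.

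Within 500 kb of *Mettl23* the table listed 43 genes, of which 18 besides *Mettl23* were tested. Of these 18, 2 passed the limma test in Sox1Cre mutants at E13.5, 0 in NestinCre mutants and 3 in Sox1Cre mutants at E12.5, beside 0.924%, 0.0669% and 0.723% of all genes. At an unadjusted p under 0.05 the counts were 7, 3 and 5, beside 1932, 1064 and 2217 of all 16454 genes. *Mxra7* (matrix remodelling associated), the nearest tested gene beyond *Jmjd6* at -15.2 kb, was lower in Sox1Cre mutants at both ages. It averaged 155.2 ± 28.3 in mutants and 234.1 ± 27.3 in controls at E12.5 (log2 fold change -0.60, limma adjusted p = 0.00864) and 173.5 ± 13.8 and 272.4 ± 22.6 at E13.5 (-0.65, limma adjusted p = 0.0036). Its NestinCre means were 185.3 and 234.6 (-0.34, limma adjusted p = 0.501). Without Sox1Cre control E12.5 replicate 1 the E12.5 call of *Mxra7* was lost (limma adjusted p = 0.0522), and with the compared libraries fitted alone both calls were lost (0.0791 at E13.5 and 0.11 at E12.5).

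Farther upstream, 2 genes were higher in Sox1Cre mutants. *Rnf157*, which encodes a ubiquitin ligase and lies at -430.2 kb, was higher in Sox1Cre mutants at E12.5 (1520 ± 96 against 1138 ± 46.3, log2 fold change 0.42, limma adjusted p = 0.00191). It did not pass at E13.5 (0.25, limma adjusted p = 0.0736) or in NestinCre mutants (0.18, limma adjusted p = 0.565). *Ubald2*, at -404.2 kb, was higher at E13.5 (0.28, limma adjusted p = 0.0483) and at E12.5 (0.29, limma adjusted p = 0.0417), and differed by 0.075 in NestinCre mutants (limma adjusted p = 0.984). The *Ubald2* calls lay near the threshold and were lost in 5 of 8 fits at E13.5 and 7 of 8 at E12.5 that each left out 1 library. They were also lost with the *Xist* covariate (limma adjusted p = 0.0614 and 0.0991) and with no filter on low values (0.0778 and 0.0664). *Mgat5b*, the nearest tested gene beyond *Mfsd11* at 64.6 kb, differed by 0.12, 0.13 and 0.042 in Sox1Cre E13.5, NestinCre and Sox1Cre E12.5 mutants and did not pass the test. The median log2 fold change of the 18 genes was 0.0099, -0.054 and -0.078 in that order, beside -0.0046, -0.0021 and 0.002 over all genes tested.

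**Figure D4:**
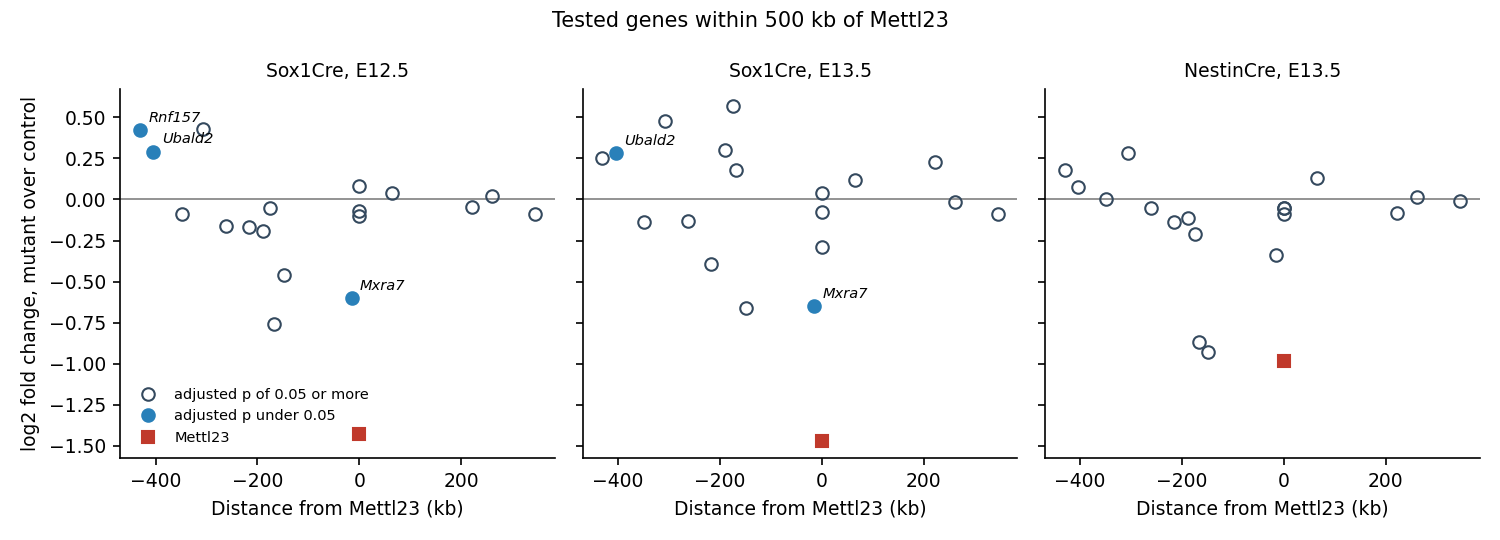
Log2 fold change of mutant over control for the 19 tested genes within 500 kb of Mettl23, by distance in kb between gene bodies, in 3 comparisons. Mettl23 (square) is the lowest point of each panel, the filled points are Mxra7, Rnf157 and Ubald2, and the NestinCre panel holds no filled point.

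The families of the 4 genes were followed too. None of the 13 SR protein genes tested, *Srsf2* among them, passed the test in any mutant comparison, and 0, 2 and 5 of them had an unadjusted p under 0.05 by limma in Sox1Cre E13.5, NestinCre and Sox1Cre E12.5 mutants, beside 1932, 1064 and 2217 of all 16454 genes. Their median log2 fold changes were 0.035, -0.049 and -0.10. *Srsf1*, the most abundant, averaged 14601 ± 938.6 and 16727 ± 811.2 in mutants and controls at E12.5 (limma adjusted p = 0.26). Of 7 tested genes for SR protein kinases and import, 2 were higher in Sox1Cre mutants at E13.5, where 0.924% of all genes passed: *Clk1* (649.1 ± 67.5 against 370.9 ± 20.9, log2 fold change 0.80, limma adjusted p = 0.000522) and *Clk4* (429 ± 25.3 against 313.3 ± 27.7, 0.45, limma adjusted p = 0.0305). Both encode kinases that phosphorylate SR proteins. The E12.5 and NestinCre controls stood higher than these controls, at 480.7 and 469.8 for *Clk1* and 377.7 and 373 for *Clk4*. Mutants of those sets averaged 502.6 and 463.8 for *Clk1* and 370 and 340.7 for *Clk4*. The part of the control levels in these calls was not tested. *Clk1* differed by 0.065 at E12.5 and -0.031 in NestinCre mutants, and the *Clk4* call was lost in 5 of 8 fits that left out 1 library, with the *Xist* covariate (limma adjusted p = 0.0614) and with the compared libraries alone (0.146). *Tnpo3*, the SR protein importer and the most abundant of this list, differed by -0.003, 0.017 and -0.066.

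No gene passed the test among 8 U2AF and JMJD6-linked splicing factors, 10 JmjC oxygenases or 10 protein arginine methyltransferases, in any mutant comparison. Over all genes 0.924% passed in Sox1Cre E13.5, 0.0669% in NestinCre and 0.723% in Sox1Cre E12.5 mutants. Lists this short could hold no call by these shares alone. *U2af2* (10257), *Jmjd1c* (2611) and *Prmt1* (5926) had the highest mean levels in these lists. Of the 25 tested METTL family genes other than *Mettl23*, 0 passed the limma test in any mutant comparison. At an unadjusted p under 0.05 the counts over all 16454 genes were 1932, 1064 and 2217 in Sox1Cre E13.5, NestinCre and Sox1Cre E12.5 mutants. Among the 25 METTL genes the counts were 0, 2 and 3 in that order. *Mettl9*, the most abundant, differed by -0.061 at E12.5. Of 14 tested MFSD genes, *Mfsd2a*, which carries lysophospholipids across the blood-brain barrier, was lower in Sox1Cre mutants at E13.5 (605.9 ± 54.3 against 913 ± 116.8, log2 fold change -0.59, limma adjusted p = 0.0113) and at E12.5 (415.3 ± 72.6 against 610.7 ± 55.6, -0.57, limma adjusted p = 0.0178). The shares over all genes were 0.924% and 0.723%. The E12.5 call was lost in 4 of 8 fits that left out 1 library, and both calls were lost with the compared libraries fitted alone (limma adjusted p = 0.0929 at E13.5 and 0.087 at E12.5). Endothelium markers, which mark cells where *Mfsd2a* is known to be made, summed to 7384 ± 2553 in mutants and 8519 ± 370.9 in controls at E13.5 and to 7986 ± 2262 and 8251 ± 497.4 at E12.5, and their part in that result was not tested. In NestinCre mutants *Mfsd2a* differed by -0.31 (limma adjusted p = 0.597). *Mfsd14a*, the most abundant of the list, differed by -0.091, -0.013 and 0.01.

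Likeness to *Mettl23* was measured as Pearson's r of log2 values over the 24 libraries among 11829 other genes with a mean of at least 100. These r are a description, since all the libraries share the same 6 groups. The highest belonged to *AC149090.1* (0.906), *Nsdhl* (0.897), *Cnn3* (0.867), *Txndc9* (0.865) and *Pgpep1* (0.864), none on chromosome 11 in the annotation, where *AC149090.1* is on the unplaced scaffold JH584304.1. The lowest belonged to *Nat9* (-0.914), *Gm7868* (-0.895), *Rad51b* (-0.879), *Rnf157* (-0.868) and *Gm7993* (-0.847), of which *Nat9* and *Rnf157* are on chromosome 11, at -1.66 and -0.507 Mb from start to start. The neighbours stood at 0.444 for *Srsf2*, 0.0661 for *Jmjd6* and 0.322 for *Mfsd11*, and *Sox9* at 0.782. With group means removed, r was -0.0779 for *Sox9* and 0.347, -0.0104 and -0.174 for the neighbours.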

How the data were processed

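Archicortex RNA was sequenced from poly(A) libraries (KAPA mRNA HyperPrep) on an Illumina HiSeq instrument. Per the labels and the study's methods, the authors trimmed reads (Trimmomatic 0.36), aligned them to GRCm38 and counted genes with STAR 2.5.2a and RSEM 1.2.31, and deposited counts divided by DESeq2 size factors. The deposited values are therefore a signal of normalized counts, from which whole reads were recovered for 100% of values in every library (tolerance 0.1 read). The table carries no columns of the authors' own comparisons. The paper names a DESeq2 analysis. Here limma 3.58.1 was used because the values are not raw counts, on log2(value + 1) over 24 libraries with 1 mean per group and 18 residual degrees of freedom, Benjamini-Hochberg adjustment over 16454 genes and a threshold of 0.05. Fold changes are on that scale and understate those of low genes. Single values were compared by exact permutation tests. edgeR 4.0.16 and DESeq2 1.42.0 were run on the recovered reads, with the other pseudocounts (0.5 and 5), filters, scalings and left-out libraries as alternatives. The scripts were tested on simulated data.

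Gene names came from GENCODE M21 (51719 of 51912 IDs matched) and promoter sequences from RefSeq. The annotation release differs from that of the authors, on the same build. Same-group libraries differed by more than sampling noise, with chi-square over degrees of freedom of 8.74 to 84.3 in 36 pairs. The members and gene lists were chosen with earlier results of these data known. No p-value is given for *Mettl23*, although tests of it at E12.5 had been planned. Those of the neighbours and of the list genes are given and are not free of that choice. Named genes were the members, *Sox9*, genes sharing their exons, genes past the threshold or nearest within 500 kb, the 5 most and 5 least like *Mettl23*, and from each list the genes past the threshold and the most abundant. Example markers, and the genes of the closing patterns, were named outside this rule, the latter after their values were seen.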

Additional observations from a re-analysis of the deposited data

How the results depend on the processing

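No paired analysis was possible because the library numbers in the labels are not shared between groups. As a description, since the gene was chosen on these values, the *Mettl23* log2 fold change at E12.5 ranged from -1.45 to -1.41 over 9 other settings and from -1.47 to -1.38 over 8 fits with 1 library left out. No neighbour passed the threshold under any setting or left-out library. The log2 fold change of *Srsf2* turned to 0.044 in the comparison of the Sox1Cre and NestinCre changes with quantile normalization, and to 0.017 with quantile normalization and 0.0047 with edgeR between the control lines.

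Counts of genes past the threshold moved with the test. DESeq2 called 358 genes in Sox1Cre mutants at E13.5, 37 in NestinCre mutants, 294 in Sox1Cre mutants at E12.5, 95 and 20 for the differences between lines and between ages, and 157 between control lines. Fitting only the libraries compared gave 44 in Sox1Cre mutants at E13.5, 76 at E12.5 and 13 for the difference between lines. In NestinCre mutants limma called 2 higher and 9 lower, edgeR gave 5 (0 higher, 5 lower), a mean of at least 100 gave 5 (1 and 4), no filter 5 (3 and 2), the *Xist* covariate 2 (1 and 1) and the compared libraries alone 10 (6 and 4), so the balance of directions turned in the last and with no filter. The covariate left 0 between control ages, and a mean of at least 100 left 22 between control lines. For the difference between lines, quantile normalization called 6 higher and 2 lower and edgeR 3 and 5, against 4 and 3.

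Leaving out 1 library moved the counts over 90 to 510 (Sox1Cre E13.5), 2 to 7 (NestinCre), 50 to 139 (Sox1Cre E12.5), 5 to 144 (between lines), 0 to 1 (between ages), 794 to 2629 (control ages) and 11 to 31 (control lines). The 510 and 144 came without Sox1Cre mutant E13.5 replicate 1. Without Sox1Cre mutant E13.5 replicates 3 and 4 and control replicate 2 the first count was 90, 101 and 95, and without Sox1Cre E12.5 control replicates 1, 2 and 4 and mutant replicate 4 the third was 50, 68, 74 and 75. The *Sox9* call in NestinCre mutants was lost in 7 of 8 such fits, and over all 8 the log2 fold change was -0.77 to -0.67. Fitted on the libraries compared alone, *Mxra7* lost its calls (limma adjusted p = 0.0791 at E13.5 and 0.11 at E12.5), as did *Mfsd2a* (0.0929 and 0.087), *Clk4* and, at E13.5, *Ubald2*. The cause of these shifts was not tested. Small changes turned sign over these fits: *Mfsd11* -0.19 to 0.01 in NestinCre mutants and -0.1 to 0.011 between control ages, *Jmjd6* -0.0085 to 0.077 in Sox1Cre mutants at E13.5, *Srsf2* -0.1 to 0.014 between lines, -0.056 to 0.06 between ages, -0.057 to 0.013 between control ages and -0.033 to 0.037 between control lines, and *Mettl23* -0.1 to 0.0042 between ages and -0.057 to 0.0092 between control ages. Whole-gene counts, reads from shared exons included, divided by exon bases shared with no gene gave 186.3 (*Mettl23*), 4364 (*Srsf2*) and 196.5 (*Jmjd6*) per kb.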

Other observations

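The following patterns were picked after their values were seen and have no test. Of the 16454 genes tested, *Mettl23* was the only one with all mutants below all NestinCre controls and these below all Sox1Cre controls, with no overlap. *Gm7868*, annotated on chromosome 12, was the only one in the reverse order. Its means were 0.977 in Sox1Cre controls at E12.5, 2.01 in those at E13.5, 100.5 ± 14.2 in NestinCre controls, and 206.9 ± 18.8, 198 ± 6.46 and 196.8 ± 30.3 in Sox1Cre E12.5, Sox1Cre E13.5 and NestinCre mutants (SD, n = 4 each). The NestinCre controls thus stood near the middle of the range for both genes.

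All 12 mutants lay below all 12 controls for 11 genes: *Aif1l*, *Cnn3*, *Mettl23*, *Mxra7*, *Nedd9*, *Nsdhl*, *Plce1*, *Prelp*, *Slc27a1*, *Sox9* and *Tmprss5*. They lay above for 3, *4933434M16Rik*, *Gm7868* and *Nat9*. *Nat9* averaged 132.6 and 130.4 in Sox1Cre controls at E12.5 and E13.5, 151.7 in NestinCre controls and 193.8, 193.3 and 191.3 in the mutants. *AC149090.1*, the gene most like *Mettl23*, averaged 677.1 ± 190.5 and 581.5 ± 141.9 in Sox1Cre controls at E12.5 and E13.5, 185.4 ± 33.3 in NestinCre controls, and 68.4 ± 23.5, 123.6 ± 41.5 and 95.1 ± 50 in Sox1Cre E12.5, Sox1Cre E13.5 and NestinCre mutants. *Mxra7*, the nearest tested gene beyond *Jmjd6*, averaged 272.4 ± 22.6 in Sox1Cre and 234.6 ± 11.1 in NestinCre controls at E13.5.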
